A study of Mus musculus with 12 samples.

Results

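The 10 genes described here, Fbxo15, Jam2, L1td1, Lin28a, Dppa4, Zfp42, Esrrb, Tfcp2l1, Klf2 and Klf5, are known from mouse embryonic stem cells. They were followed during the first days in which fibroblasts were driven towards pluripotency. Each was taken from the probe sets that named it as their only gene. Each had 1 such probe set, so the members are 10 of the 22180 genes with a probe set of their own. The question put to the 4 groups was which genes lay above background by day 3, which rose by day 6, and which stayed at background.

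The cells were fibroblasts from E13.5 mouse embryos, under 1 strain label that joins C57Bl/6 and 129X1/SvJ, genotype Col1a1::tetOP-OKSM ; R26-M2rtTA. All 4 groups carried this doxycycline-inducible cassette for Oct4 (Pou5f1), Klf4, Sox2 and c-Myc with its transactivator, and all received doxycycline and a retroviral hairpin in serum and LIF. The groups were Renilla control at day 3, Chaf1a knockdown at day 3, Renilla control at day 6 and Chaf1a knockdown at day 6, each with 3 arrays. The product of Chaf1a is the largest part of CAF-1, a chaperone that loads histones onto newly copied DNA. Whether the replicates are separate embryos or cultures is not stated, so a p-value measures only the spread between these samples. The share of cells that took up the hairpin is not stated either. Uninduced fibroblasts and embryonic stem cells were not analysed here, so a gene that lay above background by day 3 may also have done so before induction.

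In embryonic stem cells these genes belong to a network of transcription factors and their targets that holds the cells in a self-renewing state. Esrrb, an orphan nuclear receptor, Tfcp2l1, a factor of the CP2 and grainyhead family, the Krüppel-like factors Klf2 and Klf5, and Zfp42, a zinc finger protein also called Rex1, act in or mark the naive form of that state. Lin28a and L1td1 bind RNA, Dppa4 is a nuclear protein with a SAP domain, Fbxo15 is an F-box protein known as a target of Oct4 and Sox2, and Jam2 is an adhesion molecule of the immunoglobulin superfamily. During reprogramming such genes are known to come on at different times, some in the early intermediates and others only as stable pluripotency is reached.

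The median intensity of an array was 39.5 to 43.3. Within groups, arrays correlated with each other at Pearson's r of 0.994 to 0.996 over the 17860 genes kept for testing. The targeted gene Chaf1a lay at log2 values of 7.18 to 7.35 in day 3 knockdown arrays and 7.42 to 7.72 in day 3 controls, and at 7.04 to 7.16 against 7.06 to 7.31 at day 6. It was 1.22-fold lower at day 3 (adjusted p = 0.726 in limma) and 1.09-fold lower at day 6 (adjusted p = 0.999). On both days it was lower under the Chaf1a hairpin in 3 of 3 pairs with the same replicate number. In the opposite direction, 13.3% of all genes were higher in every such pair at day 6. The share that was lower in every pair was not counted. Of 11 fibroblast markers, 9 to 10 lay above background in every array, and 0 of 5 germ cell markers did in any. So did 5 to 6 of 6 muscle, 5 of 7 neural and 3 to 4 of 6 endothelial markers in each array. For trophoblast markers it was 3 of 7, and for macrophage and leukocyte markers 1 to 3 of 8. A marker above background is thus no sign of its cell type by itself.

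Of the 10 genes, 5 lay above background in all 6 day 3 arrays, namely Jam2, L1td1, Klf5, Klf2 and Lin28a. Another 3, Fbxo15, Dppa4 and Tfcp2l1, lay below background in at least 1 day 3 array and above it in all 6 day 6 arrays. The remaining 2, Esrrb and Zfp42, lay below background in all 12 arrays. Background was set in each array at the 95th percentile of 1405 probe sets for olfactory and vomeronasal receptors, genes of sensory neurons, and it lay at log2 values of 5.33 to 5.46. The array median of all 41345 probe sets lay close by, at 5.30 to 5.44. Many probe sets of any kind therefore lie above background, and these counts do not set the 10 genes apart. The share of all genes in each class was not counted. Probe sets differ in how well they bind their target, so a value below the background level does not show that a transcript is absent, and levels of different genes were not ranked. The classes moved with the height of that level. At the array's median they were as given, and at its 30th percentile 8 genes were above and 0 below throughout. At the 99th percentile of the receptors 3 were above, and 6 had no group with all 3 arrays above it. Lin28a was among these 6, and Klf2 was no longer above the level in all 6 day 3 arrays.

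**Figure D1:**
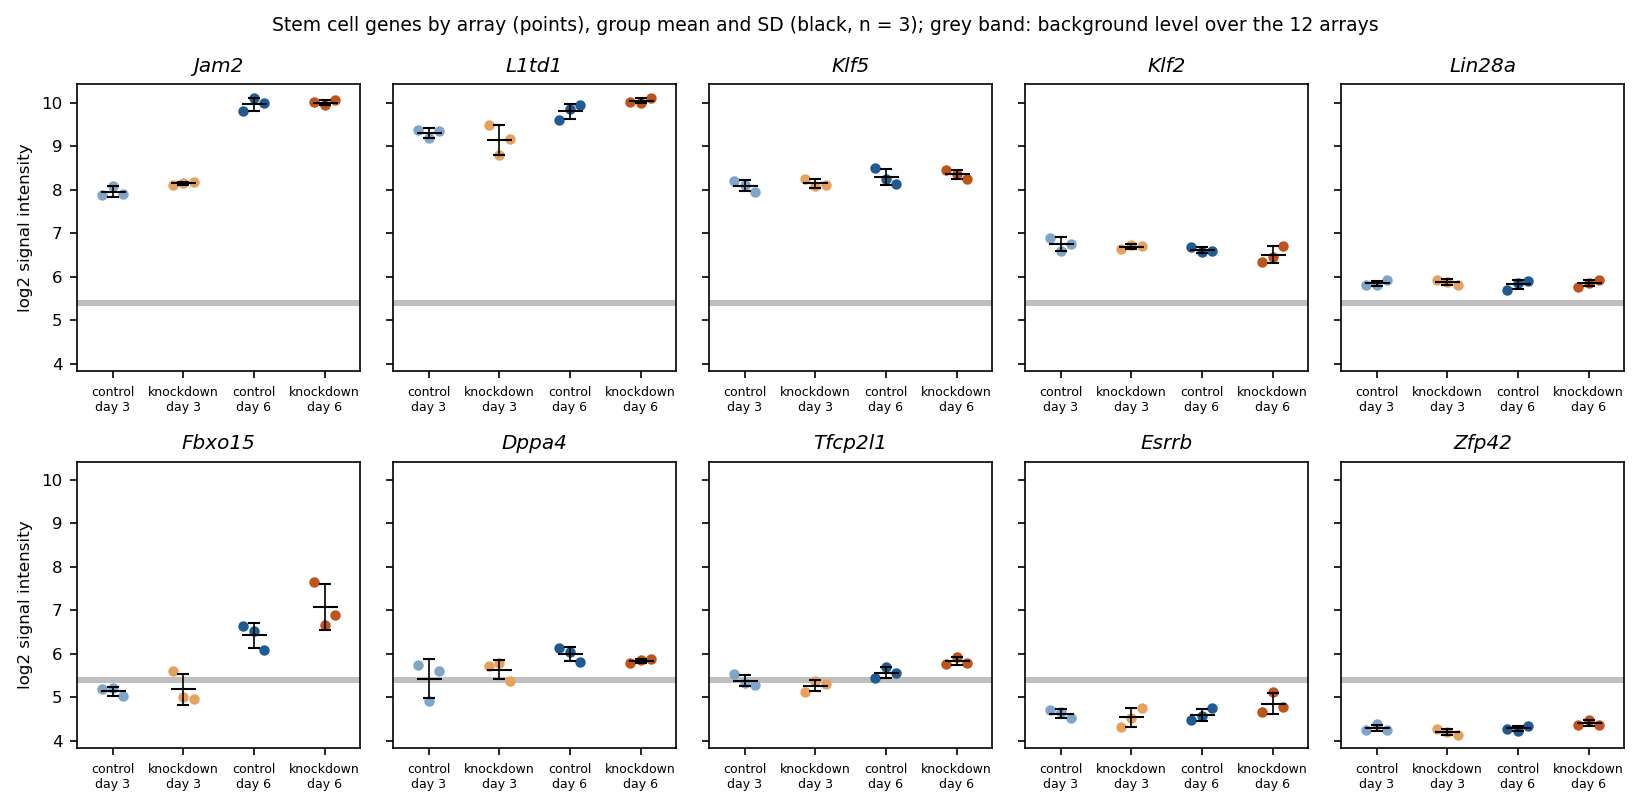
Log2 signal intensity (vertical axis) of the 10 genes in the 4 groups (horizontal axis), with a point for each array, a black bar for the group mean and whiskers for the SD (n = 3). The grey band spans the background level over the 12 arrays, 5.33 to 5.46. Jam2, L1td1 and Fbxo15 lie higher at day 6 than at day 3 under both hairpins, while Esrrb and Zfp42 stay under the band in every array.

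By the test of day 6 against day 3, 5 of the 10 genes rose under at least 1 hairpin and 0 fell under either. With the replicate number as a block Klf5 passed as well under both, and with arrays left out 2 to 4 genes rose in control cells. In control cells 4 rose (Jam2, Fbxo15, Dppa4 and L1td1), where 6.99% of the 17860 genes tested rose and 10.6% fell. In knockdown cells 4 rose (Fbxo15, Jam2, L1td1 and Tfcp2l1), where 7.46% of all genes rose and 10.5% fell. The median log2 fold change of the 10 was 0.19 in control and 0.26 in knockdown cells, against 0.01 over all genes in each. All 10 passed the filter on low values, but Zfp42 passed it through day 6 knockdown, where it reached the filter level in 3 of 3 arrays against 1 of the other 9, so its higher values there were fixed in part by the filter. Leaving it aside, the day 6 arrays lay above all day 3 arrays for 4 genes in control cells and 5 in knockdown cells, as they did for 16% and 15.4% of all genes. In these bulk samples more cells expressing a gene and more RNA per cell cannot be told apart.

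Upstream sequence is shown for 2 genes that rose, L1td1 and Tfcp2l1, and for Zfp42, which stayed at background, so that the stretch before each start can be read beside its values. Each run holds the 250 bases before a start annotated for the gene, 5′ to 3′ on the gene's strand, from RefSeq on GRCm38.p6. The annotated span of Tfcp2l1 begins at position 118627923, so the end of its window lies inside that span. The positions are chr4:98726504-98726753 on the plus strand for L1td1, chr1:118627695-118627944 on the plus strand for Tfcp2l1 and chr8:43307010-43307259 on the minus strand for Zfp42. Capitals mark matches on either strand to letters bound by the induced factors.
L1td1: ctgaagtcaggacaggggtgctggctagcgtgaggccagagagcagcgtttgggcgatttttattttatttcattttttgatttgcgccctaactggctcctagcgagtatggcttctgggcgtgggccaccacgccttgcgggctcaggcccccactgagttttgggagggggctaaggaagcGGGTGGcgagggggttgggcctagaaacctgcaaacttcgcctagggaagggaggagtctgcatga
Tfcp2l1: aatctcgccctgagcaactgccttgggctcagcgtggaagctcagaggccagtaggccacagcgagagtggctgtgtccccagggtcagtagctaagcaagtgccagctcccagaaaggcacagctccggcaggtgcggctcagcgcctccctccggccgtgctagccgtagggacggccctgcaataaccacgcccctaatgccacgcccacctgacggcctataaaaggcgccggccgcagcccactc
Zfp42: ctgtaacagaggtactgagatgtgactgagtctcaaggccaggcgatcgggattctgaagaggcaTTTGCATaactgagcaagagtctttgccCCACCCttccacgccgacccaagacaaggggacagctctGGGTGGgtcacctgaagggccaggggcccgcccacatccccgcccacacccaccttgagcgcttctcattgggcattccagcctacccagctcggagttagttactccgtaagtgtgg

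The letters searched were TTTGCAT for the octamer of Pou5f1, AACAAT for Sox factors, CCACCC for Krüppel-like factors and CACGTG for Myc, each with its reverse complement. No pair of these overlapped in the windows shown. The Zfp42 window held TTTGCAT, starting 185 bases before the start, and CCACCC at 2 places. The L1td1 window held CCACCC at 1 place and the Tfcp2l1 window held none of the 4. Over 32851 windows of the same length, 4.12% held TTTGCAT, 9.42% AACAAT, 28.1% CCACCC and 6.02% CACGTG. Of the 10 genes 6 matched the table, with 7 windows, since Esrrb has 2 starts there. TTTGCAT was in 1 of these 7 windows, AACAAT in 1 (Esrrb), CCACCC in 5 (L1td1, Zfp42, Klf2 and both of Esrrb) and CACGTG in 0. A match describes the letters only.

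Jam2 encodes an adhesion molecule of cell junctions and rose about 4-fold between the days. Its log2 values were 7.87, 8.09 and 7.89 in day 3 controls and 9.80, 10.10 and 9.98 in day 6 controls. In knockdown arrays they were 8.10, 8.15 and 8.18 at day 3 and 10.02, 9.94 and 10.05 at day 6. Every day 6 array lay above every day 3 array, and the values within a group were close together. The rise was 4.03-fold in control cells (log2 fold change 2.01, SE 0.08, adjusted p = 1.40e-07 in limma) and 3.63-fold in knockdown cells (1.86, SE 0.08, adjusted p = 1.29e-07). Among all 17860 genes these were the rises of rank 8 and rank 17. Its order of group means was control day 3, knockdown day 3, control day 6 and knockdown day 6, and the last 2 differed by less than the SD of the control arrays.

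Fbxo15 encodes an F-box protein whose reporter allele has served to select reprogrammed cells. Its day 3 values were 5.19, 5.21 and 5.02 in controls and 5.60, 5.003 and 4.96 in knockdown arrays. At day 6 they were 6.65, 6.52 and 6.10 in controls and 7.66, 6.65 and 6.89 in knockdown arrays. All 6 day 6 arrays lay above background and above all 6 day 3 arrays, of which knockdown replicate 1 alone was above background. The gene rose 2.44-fold in control cells (log2 fold change 1.28, SE 0.24, adjusted p = 0.00303 in limma) and 3.69-fold in knockdown cells (1.88, SE 0.24, adjusted p = 2.28e-04). These folds were taken against a day 3 level below background. Its spread was the widest of the 10 in day 6 knockdown (SD 0.53), where replicate 1 was the highest array, and without that array the rise was 1.59 on the log2 scale.

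L1td1 encodes an RNA-binding protein derived from a LINE-1 element. It was above background at day 3, at 9.38, 9.18 and 9.35 in controls and 9.48, 8.80 and 9.17 in knockdown arrays. At day 6 it stood at 9.61, 9.85 and 9.94 in controls and 10.02, 10.001 and 10.12 in knockdown arrays. The groups of the 2 days did not overlap under either hairpin, nor did the day 6 groups overlap each other. It rose 1.86-fold in knockdown cells (log2 fold change 0.90, SE 0.14, adjusted p = 0.00102 in limma) and 1.41-fold in control cells (0.50, SE 0.14, adjusted p = 0.0289). The control call was lost without day 3 control replicate 2 (0.44, adjusted p = 0.108) or 3 (0.52, 0.0589), without day 6 control replicate 2 (0.47, 0.0833) or 3 (0.43, 0.102), and with number 2 (0.41, 0.119) or 3 (0.45, 0.229) left out of all groups. It was also lost with all probe sets tested together (0.50, adjusted p = 0.0609), whereas the knockdown call held in all 25 alternatives.

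Tfcp2l1 encodes a transcription factor of naive stem cells that responds to LIF. Its values at day 3 were 5.53, 5.34 and 5.28 in controls and 5.13, 5.37 and 5.31 in knockdown arrays, all near the background level. At day 6 they were 5.44, 5.69 and 5.56 in controls and 5.77, 5.93 and 5.79 in knockdown arrays. All 3 day 6 knockdown arrays lay above the other 9. All 3 day 3 knockdown arrays and 1 day 3 control array were below background, so the fold was taken against a level not above it. The gene rose 1.48-fold in knockdown cells (log2 fold change 0.56, SE 0.09, adjusted p = 0.00133 in limma), a call kept in all 25 alternatives. In control cells the change was 0.18 (95% interval -0.02 to 0.38, adjusted p = 0.228), and it passed only with replicate number 1 left out of all groups (0.31, adjusted p = 0.0485).

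Dppa4 encodes a nuclear protein that works with Dppa2. Its values were 5.75, 4.91 and 5.61 in day 3 controls, 5.73, 5.78 and 5.39 in day 3 knockdown, 6.14, 6.05 and 5.81 in day 6 controls and 5.78, 5.86 and 5.87 in day 6 knockdown. Day 3 control replicate 2 was the lowest of the 12 arrays and the only array under background. The gene rose 1.49-fold in control cells (log2 fold change 0.57, SE 0.18, adjusted p = 0.0459 in limma), and without that array the change was 0.32 (adjusted p = 0.132). The call held in 3 of 15 fits that left out arrays and 7 of 10 others, with adjusted p-values up to 0.283 and the lowest change, 0.29, without number 2 in all groups. Single arrays whose removal ended it were control replicates 2 and 3 at day 3, control replicates 1 and 2 at day 6, knockdown replicates 1 and 2 at day 3, and all 3 knockdown arrays at day 6. In knockdown cells the change was 0.21 (95% interval -0.19 to 0.60, adjusted p = 0.490). Its family neighbour Dppa2 stood at group means of 4.42 to 4.46, under background, with changes of -0.01 and -0.05.

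The 3 genes that lay above background by day 3 without passing the time test were Klf5, Klf2 and Lin28a. Klf5 is a zinc finger factor of stem cells and of epithelia. It stood at 8.20, 8.10 and 7.95 in day 3 controls, 8.25, 8.07 and 8.10 in day 3 knockdown, 8.51, 8.24 and 8.14 in day 6 controls and 8.46, 8.35 and 8.25 in day 6 knockdown. The day 6 array was the higher in 3 of 3 same-number pairs under each hairpin, as for 25.4% of all genes in control and 25.9% in knockdown cells. The log2 fold changes were 0.21 in control (adjusted p = 0.183 in limma) and 0.21 in knockdown cells (adjusted p = 0.169). With the replicate number as a block both passed, at adjusted p = 0.0403 and 0.0357 with the same changes.

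Klf2, a Krüppel-like factor that acts in naive stem cells and in endothelium, was flat or slightly lower with time. Its values ran from 6.58 to 6.89 in day 3 controls, 6.62 to 6.73 in day 3 knockdown, 6.57 to 6.69 in day 6 controls and 6.33 to 6.71 in day 6 knockdown, so that all groups overlapped. The changes were -0.13 (95% interval -0.35 to 0.08) in control and -0.19 (-0.40 to 0.03) in knockdown cells. Lin28a blocks the maturation of let-7 microRNAs in stem cells. It was the steadiest of the 10, with all 12 arrays between 5.70 and 5.93. These values lay above the 95th percentile of the receptors but below the 99th, which stood at 6.55 to 6.71. Its changes were -0.03 under each hairpin, with intervals of -0.18 to 0.12 in control and -0.17 to 0.12 in knockdown cells. Lin28b, its close relative, stood under background at group means of 4.34 to 4.40.

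Esrrb and Zfp42 did not leave background. Esrrb stood at 4.71, 4.65 and 4.52 in day 3 controls, 4.33, 4.52 and 4.76 in day 3 knockdown, 4.48, 4.57 and 4.75 in day 6 controls and 4.66, 5.12 and 4.78 in day 6 knockdown. The highest of these, day 6 knockdown replicate 2, was still below the background level. Its change over time was 0.31 in knockdown cells (95% interval 0.04 to 0.59, adjusted p = 0.115 in limma) and -0.03 in control cells (-0.31 to 0.25, adjusted p = 0.918). Zfp42 stood between 4.13 and 4.49 in all 12 arrays. In day 6 knockdown it was at 4.37, 4.49 and 4.35, above the 4.28, 4.20 and 4.13 of day 3 knockdown. That difference of 0.20 lies below background and in the group that brought the gene past the filter, so no test is given for it. In control cells the change was -0.01.

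**Figure D2:**
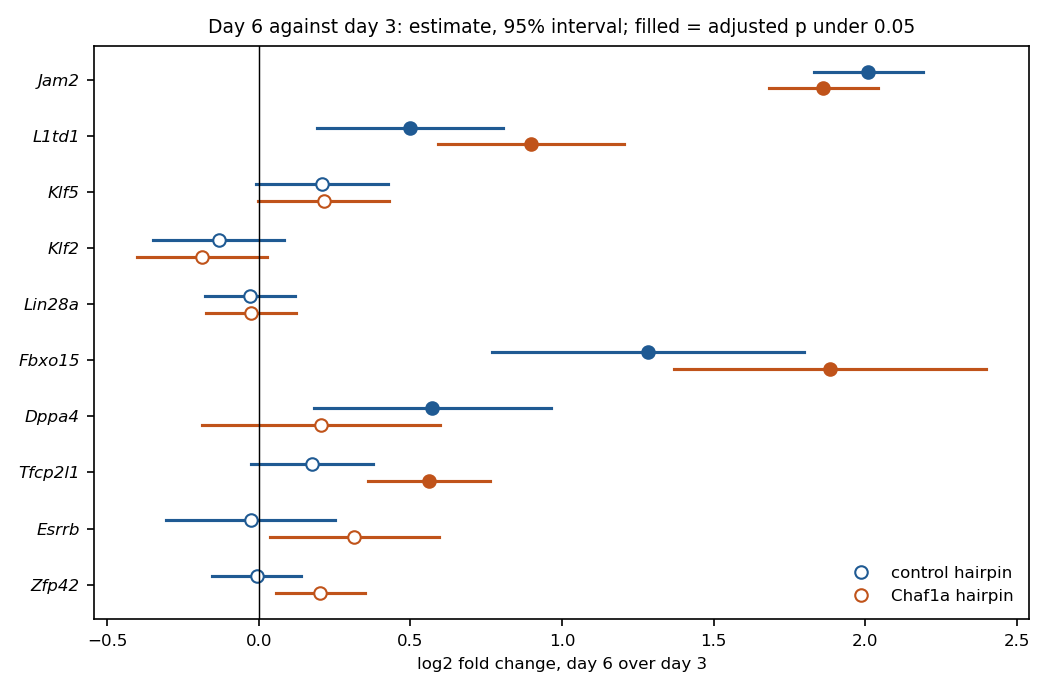
Log2 fold change of day 6 over day 3 (horizontal axis) for the 10 genes (vertical axis) in control and knockdown cells, with 95% intervals as lines and filled points where the adjusted p was under 0.05. Jam2, Fbxo15 and L1td1 are filled under both hairpins, Dppa4 in control only and Tfcp2l1 in knockdown only.

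The knockdown itself was then set against control on each day. At day 3, 0 of the 10 genes passed, against 0% of all genes, and 1 had an unadjusted p under 0.05 in limma (Jam2, 0.0409), where 6.01% of all genes did. Jam2 was 0.19 higher on the log2 scale (95% interval 0.01 to 0.37, adjusted p = 0.801), with no overlap of the groups, as for 5.21% of all genes in that direction. The other 9 changes ran from -0.15 (L1td1) to 0.21 (Dppa4), 5 of them negative. For Lin28a the interval reached from -0.12 to 0.17, and for Fbxo15 from -0.47 to 0.56, with an error that also draws on its day 6 arrays.

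At day 6, 0 of the 10 passed, against 0.0392% of all genes, and 2 had an unadjusted p under 0.05 in limma, where 4.44% of all genes did. These were Tfcp2l1 and Fbxo15. Tfcp2l1 was 0.27 higher in knockdown (1.21-fold, 95% interval 1.05 to 1.39, adjusted p = 0.994 in limma), by 0.33, 0.25 and 0.24 in the 3 same-number pairs. Fbxo15 was 0.65 higher (1.57-fold, 95% interval 1.10 to 2.24, adjusted p = 0.995 in limma), by 1.01, 0.13 and 0.79 in the pairs. Without knockdown replicate 1 its difference was 0.35. Knockdown arrays lay above all control arrays for 3 genes, Tfcp2l1, Fbxo15 and L1td1 (0.25), leaving aside Zfp42 (0.12), and 5% of all genes did so.

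The remaining differences at day 6 were smaller or within the spread. Esrrb was 0.25 higher (95% interval -0.03 to 0.53), with the knockdown array above in 3 of 3 pairs, as for 13.3% of all genes, and the groups overlapping. Klf5 stood at 0.06, Jam2 at 0.04 and Lin28a at 0.03, with upper bounds of 0.28, 0.22 and 0.18. Klf2 (-0.11) and Dppa4 (-0.16) were the lower in knockdown. The median over the 10 was 0.09 at day 6 and -0.02 at day 3, against -0.01 over all genes on each day. Leaving aside Zfp42, which passed the filter through day 6 knockdown, the middle value at day 6 was that of Klf5, 0.06. In the same arrays the mean level of 8 embryonic stem cell markers was 5.66 to 5.97 in day 6 knockdown and 5.22 to 5.28 in day 6 controls. Tdgf1 (1.77), Utf1 (0.87), Sall4 (0.78) and Nanog (0.63) stood higher in knockdown, and Tdgf1 passed the filter through that group. Pou5f1, Dppa3, Sox2 and Dppa5a lay between -0.02 and 0.05. The mean level of 10 epithelial markers was 6.33 to 6.46 in day 6 knockdown and 5.94 to 6.00 in day 6 controls. Of the first list 4 to 6 markers lay above background in a day 6 knockdown array and 3 to 4 in a day 6 control array. Sox2, which the cassette also carries, and Dppa5a did in none. Of the second list 7 to 8 did in a day 6 knockdown array and 6 in a day 6 control array, with Esrp1 and Cldn7 in none. The part of such cells in the values above was not tested.

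**Figure D3:**
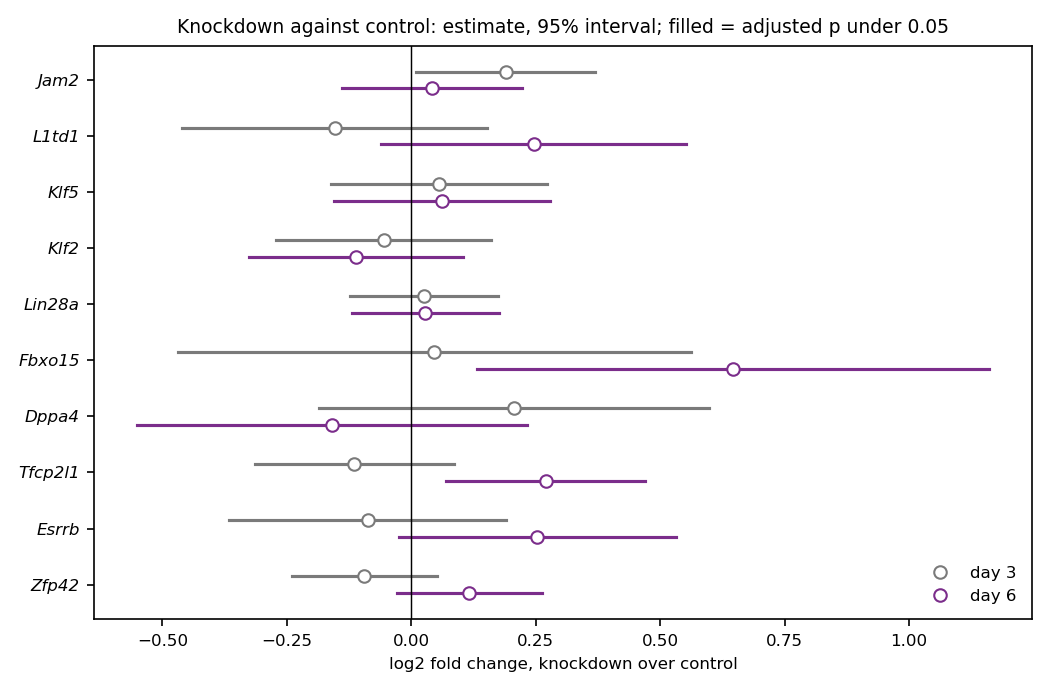
Log2 fold change of knockdown over control (horizontal axis) for the 10 genes (vertical axis) at day 3 and day 6, with 95% intervals as lines. Points would be filled at an adjusted p under 0.05, and all are open. At day 6 the intervals of Fbxo15 and Tfcp2l1 lie above 0.

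Whether the knockdown effect differed between the days was tested as an interaction, and 0 of the 10 genes passed, nor did any of the 17860. The sizes were 0.60 for Fbxo15 (95% interval -0.13 to 1.33), 0.40 for L1td1 (-0.03 to 0.83), 0.39 for Tfcp2l1 (0.10 to 0.67) and 0.34 for Esrrb (-0.05 to 0.73). Their adjusted p-values in limma were 0.989, 0.978, 0.918 and 0.989. Zfp42 stood at 0.21, Jam2 at -0.15 and Dppa4 at -0.37 (adjusted p = 0.990), while Klf2, Klf5 and Lin28a lay between -0.06 and 0.0048. Leaving aside Zfp42, 1 member (Tfcp2l1) had an unadjusted p under 0.05 (0.0115), as did 5.1% of all genes in limma. Thus the rise of Tfcp2l1 past the threshold in knockdown only, and that of Dppa4 in control only, are not shown to differ between the hairpins.

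Other genes of the pluripotency network were counted in the same way. Of 51 with a probe set of their own, 11 rose and 0 fell between the days in control cells, where 6.99% of all genes rose and 10.6% fell. In knockdown cells 23 rose and 1 fell, where 7.46% of all genes rose and 10.5% fell. Their median log2 fold change was 0.09 and 0.21. In control cells the largest calls were Cdh1 (0.96), the epithelial cadherin, Bmp4 (0.81), a secreted growth factor, Etv5 (0.65), an Ets factor, and Il6st (0.59), a receptor chain for LIF. In knockdown cells they were Cdh1 (1.99), Tdgf1 (1.62), a co-receptor for Nodal, Nr0b1 (1.36), a nuclear receptor of stem cells, and Epcam (1.24), an epithelial adhesion molecule. Tdgf1, Nr0b1 and Epcam lay below background in all day 3 knockdown arrays, and Tdgf1 reached the filter level in the 3 day 6 knockdown arrays alone. Between hairpins 4 of the 51 were higher at day 6 (Tdgf1, Cdh1, Sall4 and Nanog), where 0.0392% of all genes were, and 0 at day 3. At an unadjusted p under 0.05 in limma there were 18 at day 6 and 3 at day 3, against 4.44% and 6.01% of all genes. The list was chosen with earlier results of these data known, so these shares are no test of it. Tdgf1 passed the filter through day 6 knockdown, so its higher values there were fixed in part by the filter. The day 6 call was kept in 14 of 18 alternatives for Tdgf1, 17 of 24 for Cdh1, 20 of 24 for Sall4 and 21 of 24 for Nanog. It was lost for Tdgf1 without any 1 of the 3 day 6 control arrays, and for Cdh1 without day 6 control replicate 1 or 2 or day 6 knockdown replicate 1. Both also lost it with only the groups compared. Leaving any 1 replicate number out of all groups ended the call for Cdh1, Sall4 and Nanog. The mean of probe sets ended it for Sall4, whose change was 0.36 at its lowest. Over all alternatives, adjusted p-values in limma reached 0.384 for Tdgf1, 0.565 for Cdh1, 0.560 for Sall4 and 0.453 for Nanog.

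**Figure D4:**
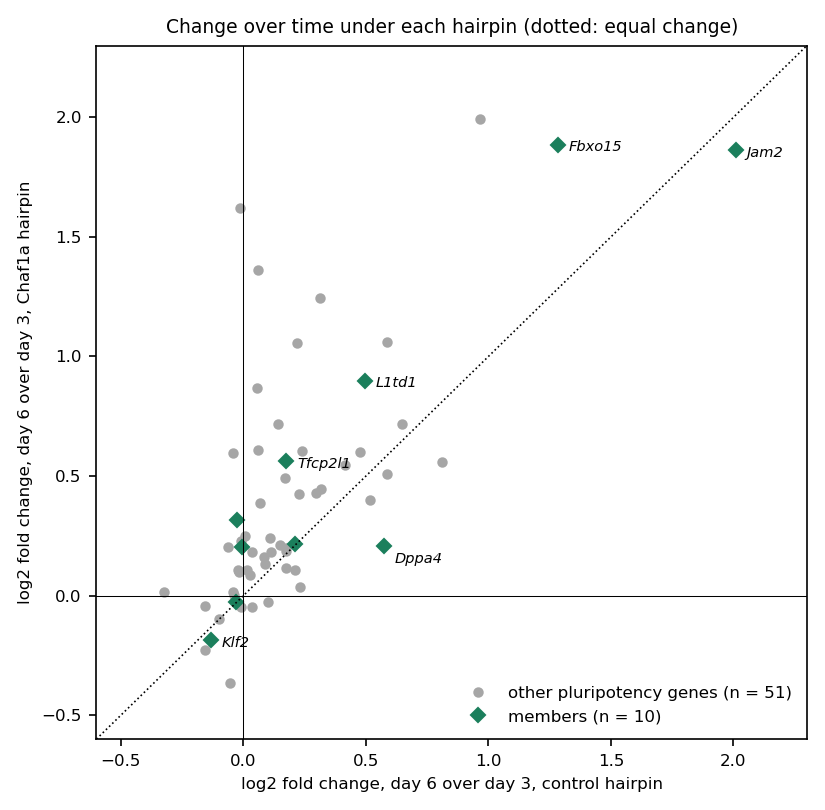
Log2 fold change of day 6 over day 3 in knockdown cells (vertical axis) against that in control cells (horizontal axis), for the 10 members (diamonds) and 51 other pluripotency genes (circles). Points above the dotted line have the higher signed value in knockdown cells. Jam2 and Dppa4 lie below it and Fbxo15, L1td1 and Tfcp2l1 above it.

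Relatives of the members by gene family were counted too. Of 33, 3 rose and 3 fell with time in control cells, where 6.99% of all genes rose and 10.6% fell, and 6 rose and 2 fell in knockdown cells, where 7.46% rose and 10.5% fell. F11r, a junctional adhesion molecule, rose by 0.57 (adjusted p = 0.00663 in limma) and 0.65 (adjusted p = 0.00307), while Jam3, of the same family, stood at -0.13 and -0.22 without passing. Among Krüppel-like factors Klf10 fell by 0.39 and Klf11 rose by 0.32 in control cells, and Klf8 fell by 0.58 and Klf15 rose by 0.54 in knockdown cells. Klf11 kept its call in 19 of 24 alternatives and Klf15 in 11 of 24. Fbxo5, an F-box protein of the cell cycle, fell by 0.49 in control and 0.39 in knockdown cells, with the call kept in 22 and 17 of 24. Between hairpins 0 of the 33 passed on either day, against 0% of all genes at day 3 and 0.0392% at day 6. At an unadjusted p under 0.05 in limma there were 4 on each day, against 6.01% of all genes at day 3 and 4.44% at day 6. The 2 with the highest level, Klf4, which the cassette also carries, and Klf3, stood at 0.04 and 0.02 at day 6.

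The members differed in how closely other genes followed them over the 12 arrays, which share days, hairpins and replicate numbers. For Jam2 the 3 genes with the highest Pearson's r were Crym (0.995), Tmem44 (0.994) and Arvcf (0.991). For Fbxo15 they were Slc2a1 (0.980), Cyp2s1 (0.977) and Spry2 (0.975), and for L1td1 Jag2 (0.980), Parp1 (0.972) and Cbx2 (0.965). Jam2 had 424 genes with r above 0.9, Fbxo15 307 and L1td1 118. Tfcp2l1 was followed most closely by Prph2 (0.954), Map7 (0.954) and Cbx7 (0.934), Klf5 by Elapor2 (0.962), Ssh3 (0.960) and Cxcl14 (0.955), and Dppa4 by Ltk (0.942), Lrrc29 (0.926) and Smim17 (0.913). For the flat genes the best values were lower, with Snrpd1 (0.910), Fubp1 (0.881) and Asgr2 (0.833) for Lin28a and Teddm1a (0.857), Rhof (0.850) and Dnm3 (0.829) for Klf2. Among the members themselves r was highest for Fbxo15 with Jam2 (0.90), Fbxo15 with L1td1 (0.87) and Jam2 with L1td1 (0.86), and lowest for Fbxo15 with Klf2 (-0.68).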

How the data were processed

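Affymetrix mouse arrays were read from biotin-labelled RNA of 12 samples, 3 in each of 4 groups, per the labels. The deposited values are linear signal intensities. The submitters' processing notes name RMA and Expression Console, version 1.3.0.187, while annotation version and genome build are not given there. RMA normalises arrays to each other, so a shift shared by most genes would not show. The log2 of the deposited intensities was taken. Of 41345 probe sets, 23521 named 1 gene by GEO's platform annotation, and a gene with several was taken from its brightest on average. Genes were kept that reached the array's own 30th percentile (4.30 to 4.38) in at least 3 arrays, which left 17860 of 22180. The two-sided test was limma 3.58.1 (R 4.3.3), fitting 4 group means to all 12 arrays with 8 residual degrees of freedom. P-values were adjusted by Benjamini-Hochberg over all genes kept, with a threshold of 0.05. The fit was tested on simulated data. Errors are SE for fitted changes and SD over 3 arrays. The number of arrays limits the precision.

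Named were all members, up to 4 passing genes of each list with the largest change (or the 2 of highest level where fewer than 2 passed), and for each gene on by day 3 or rising the 3 with the highest correlation, leaving out Gm, Rik, Mir, Snord and Snora names. Members and lists were chosen with earlier results of these data known. Arrays of the same number deviated together after group means were removed: r was 0.137 to 0.373 in all 12 same-number pairs of compared groups. The numbers were therefore taken to pair the samples, and the fit with the replicate number as a block is given where it changes a call. Alternatives were the block, other filters and scalings, the mean of probe sets, an intensity trend, array weights, only the groups compared, all probe sets, arrays left out, and other background levels. Plots used matplotlib 3.10.9.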

Additional observations from a re-analysis of the deposited data

How the results depend on the processing

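Of the calls over time, Jam2, Fbxo15, L1td1 and Tfcp2l1 in knockdown and Jam2 and Fbxo15 in control cells passed in all 25 alternatives each, and between hairpins 0 members passed in any. With arrays left out, 2 to 4 members rose in control cells and 4 in knockdown cells, and 2 rose in control cells with all probe sets tested together. Zfp42 was left aside in these counts, since it passed the filter through day 6 knockdown. The replicate block changed no member's call except Klf5, which it added in both time comparisons. Over all genes, calls with arrays left out numbered 1080 to 3172 (main 3140) for time in control, 1069 to 3388 (main 3200) for time in knockdown, and 0 to 8 (main 7) between hairpins at day 6. That last count was 2 with only the groups compared and 3 with all probe sets. The cause was not tested. With background at the array's 30th percentile 8 members were on by day 3 and 0 had no group with all 3 arrays above it. With the 99th percentile of receptors these counts were 3 and 6. Zfp42 had no value where a filter removed it, such as at the array median.

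Signs turned only for changes that had not passed. With array weights the time change in control was 0.0204 for Zfp42 and 0.0409 for Esrrb, that in knockdown 0.0011 for Lin28a, the day 3 difference -0.0188 for Lin28a and 0.0067 for Esrrb, and the interaction -0.0227 for Klf5. Quantile normalisation gave -0.0017 for Lin28a at day 3 and -0.0034 for the interaction of Klf5. With arrays left out, time in control ran from -0.0603 to 0.0387 for Zfp42, -0.157 to 0.0751 for Esrrb and -0.0687 to 0.0286 for Lin28a, and time in knockdown from -0.0917 to 0.0404 for Lin28a. The day 3 difference ran from -0.0186 to 0.0913 for Lin28a, -0.25 to 0.0574 for Esrrb, -0.16 to 0.0507 for Klf2, -0.16 to 0.17 for Fbxo15, -0.12 to 0.42 for Dppa4, -0.32 to 0.0226 for L1td1, -0.0103 to 0.11 for Klf5 and -0.19 to 0.0303 for Tfcp2l1. The day 6 difference ran from -0.0455 to 0.14 for Jam2, -0.0292 to 0.0657 for Lin28a, -0.018 to 0.17 for Klf5 and -0.23 to 0.0099 for Klf2. The interaction ran from -0.0739 to 0.11 for Klf5, -0.0601 to 0.0423 for Lin28a and -0.18 to 0.0508 for Klf2. The array signal over background limits Esrrb and Zfp42, whose values lie below the receptor level in all 12 arrays.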
